A study of Mus musculus with 6 samples.

Results

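The genes described here are 10 genes of the pericentral programme of the liver lobule, Glul, Oat, Axin2, Lgr5, Tbx3, Rhbg, Slc1a2, Lect2, Rnf43 and Nkd1. They were chosen as targets of Wnt signalling or as genes expressed around the central vein. Each was taken from array rows annotated with exactly 1 gene symbol, and of several rows for 1 gene the brightest on average was used. All 10 had a row, out of 22180 genes measured in this way. RNA came from whole liver of C57BL/6 mice, 3 wild type and 3 Pfn2-/-, and was hybridised to 6 Affymetrix arrays. Profilin 2, the product of Pfn2, binds monomeric actin. Replicates 1, 2 and 3 of both genotypes were taken at 9, 8.5 and 8 months of age, and each replicate is an independent biological one per the labels. The labels give no treatment. How the Pfn2 allele was made, the sex of the animals and whether they were littermates are not stated in these sources. All values are RMA expression values on the log2 scale, and all differences are Pfn2-/- minus wild type.

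Hepatocytes differ along the axis from the portal vein to the central vein. Endothelial cells of the central vein secrete Wnt ligands and the R-spondin Rspo3, which stabilise beta-catenin in the neighbouring hepatocytes and so maintain a pericentral set of genes. The innermost ring of these cells takes up glutamate and ammonium and makes glutamine, while periportal hepatocytes make urea and glucose. A whole-liver array averages over all zones, and fewer cells of a type cannot be told apart from less RNA per cell.

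The array medians lay between 4.36 and 4.41. Of 10 hepatocyte marker genes 10 lay above 4.72, the median of all gene means. The row of Pfn2 lay at 4.02, 3.85 and 4.09 in wild-type livers against 3.88, 3.81 and 3.93 in Pfn2-/- livers. It is dim in both genotypes and the part of the transcript it covers is not given, so it does not check the labels. Some arrays stood apart. For 9 acute-phase genes, the mean of the values after subtracting each gene's own average lay at 0.60 and 1.14 in Pfn2-/- replicates 1 and 3 and at -0.47 to -0.39 in the other 4 arrays. The same mean over 10 heat shock genes was 0.69 in Pfn2-/- replicate 3 and -0.19 to -0.01 elsewhere. The part of these states in the results below was not tested.

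No pericentral gene passed the test between the genotypes. In limma's fit over all 22180 genes, 0 of the 10 had a Benjamini-Hochberg adjusted p under 0.05 (smallest adjusted p = 0.915), and 0% of all genes passed. At an unadjusted p under 0.05 by limma there were 2 of 10, Rnf43 and Lect2, both with the higher mean in Pfn2-/- liver, against 2.67% of all genes higher, 5.29% in either direction. The genotypes overlapped in all 10, whereas they were fully separate in 9.85% of all genes. Of the 10 differences 8 lay above 0 and 2 below, against 49.2% and 49.9% of all genes, and their median was 0.22 against 0.00 for all genes. The count at an unadjusted p under 0.05 was 0 without wild-type replicate 1 or without Pfn2-/- replicate 1, 1 without wild-type replicate 2 and 4 without wild-type replicate 3. The median of the 10 was 0.10 without wild-type replicate 1 and 0.38 without wild-type replicate 3.

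**Figure D1:**
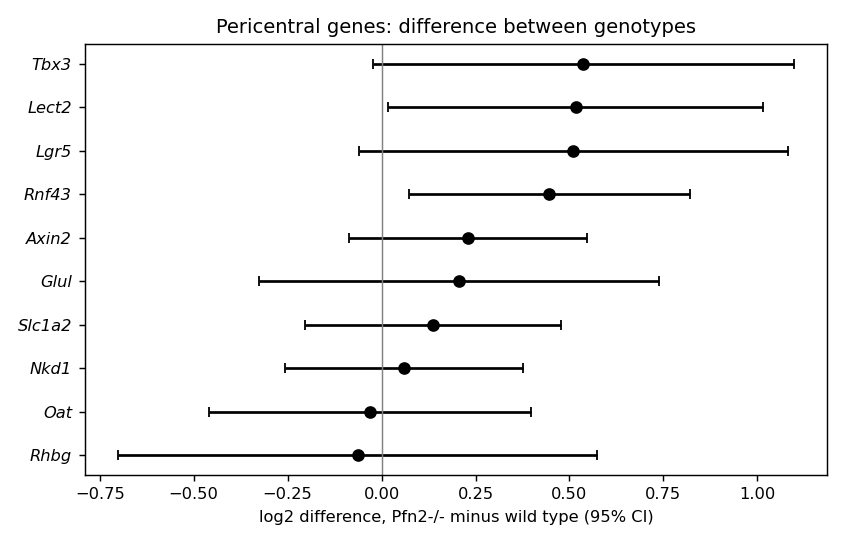
Log2 difference between Pfn2-/- and wild-type liver for each of the 10 pericentral genes (horizontal axis), from limma with 3 arrays per genotype. Points are the differences and bars their 95% confidence intervals. The points run from -0.06 for Rhbg to 0.54 for Tbx3, and the intervals of Rnf43 and Lect2 alone lie wholly above 0.

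Among the enzymes, Glul encodes glutamine synthetase, which joins ammonium to glutamate in the innermost pericentral hepatocytes. Its log2 values were 9.90, 10.29 and 10.82 in wild-type replicates 1, 2 and 3 and 10.80, 10.17 and 10.66 in the Pfn2-/- replicates. The genotypes overlapped, since wild-type replicate 3 was the highest of all 6 arrays and wild-type replicate 1 the lowest. The difference was 0.21 (SE 0.24, 95% confidence interval -0.32 to 0.74), smaller than the SD of 0.46 among wild-type and 0.33 among Pfn2-/- arrays. It was -0.01 without wild-type replicate 1 and 0.45 without wild-type replicate 3. Glul lies at chr1:153899929-153909723 (GRCm38.p6). A further, dimmer row of Glul gave 5.06, 4.94 and 5.22 in wild-type livers against 5.67, 5.0 and 5.71 in Pfn2-/- livers, a difference of 0.39 (SE 0.19).

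Oat, at chr7:132557475-132576398, encodes ornithine aminotransferase, a mitochondrial enzyme whose reaction yields glutamate semialdehyde and glutamate. Its values were 10.89, 11.34 and 11.14 in wild-type livers against 11.49, 10.99 and 10.80 in Pfn2-/- livers. The highest and the lowest array were both Pfn2-/-. The difference of -0.03 (SE 0.19, interval -0.46 to 0.40) took either sign when single arrays were left out, from -0.23 without Pfn2-/- replicate 1 to 0.12 without Pfn2-/- replicate 3.

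The transporters of the same cells did not separate the genotypes. Rhbg, an ammonium transporter of the Rhesus glycoprotein family at chr3:88242874-88254739, lay at 5.68, 5.95 and 6.43 in wild-type livers against 6.47, 5.30 and 6.10 in Pfn2-/- livers. Pfn2-/- replicates 1 and 2 were the highest and the lowest of all 6 arrays. The difference was -0.06 (SE 0.28, interval -0.70 to 0.57), and it was 0.27 without Pfn2-/- replicate 2, 0.14 without wild-type replicate 3 and -0.32 without Pfn2-/- replicate 1. Slc1a2, a sodium-dependent glutamate transporter at chr2:102658239-102790784, had a narrow range of 0.49 over the 6 arrays. Its mean was 6.72 ± 0.27 (SD, n = 3) in wild type and 6.86 ± 0.09 in Pfn2-/- liver, a difference of 0.14 (SE 0.15, interval -0.20 to 0.48). It was 0.045 without wild-type replicate 1 and 0.29 without wild-type replicate 2.

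Among the receptor-level regulators, Rnf43 had the smallest p of the 10 genes. It encodes a membrane ubiquitin ligase that removes Frizzled receptors from the cell surface, and it is itself induced by Wnt signalling. Its values were 6.62, 6.56 and 7.09 in wild-type livers against 7.40, 7.15 and 7.06 in Pfn2-/- livers. The genotypes overlapped only through wild-type replicate 3, which exceeded Pfn2-/- replicate 3. The difference was 0.45 (SE 0.17, interval 0.07 to 0.82), a 1.36-fold higher mean, with an adjusted p of 0.915 by limma. It kept its sign without any single array, at 0.35 to 0.61. Rnf43 lies at chr11:87663087-87735539.

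Lgr5, at chr10:115450314-115587780, encodes an R-spondin receptor that marks pericentral hepatocytes. It lay at 4.82, 5.11 and 5.84 in wild-type livers against 5.80, 6.08 and 5.42 in Pfn2-/- livers. Wild-type replicates 1 and 2 were below every Pfn2-/- array, and wild-type replicate 3 lay among them. The difference was 0.51 (SE 0.26, interval -0.06 to 1.08, limma adjusted p = 0.937), 0.29 without wild-type replicate 1 and 0.80 without wild-type replicate 3. A further row of Lgr5 was dim, below the median of gene means, and differed by -0.07 (SE 0.15).

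Axin2 and Nkd1 are intracellular feedback inhibitors. Axin2, a scaffold of the beta-catenin destruction complex that Wnt signalling induces, lay at 5.51, 5.63 and 5.84 in wild-type livers against 5.93, 5.70 and 6.04 in Pfn2-/- livers. Pfn2-/- replicate 2 fell within the wild-type range. The difference was 0.23 (SE 0.14, interval -0.09 to 0.55), but a dimmer further row of Axin2 differed by -0.16 (SE 0.13), so its rows disagree in sign. Nkd1, which binds Dishevelled and restrains Wnt signalling, ranged over 0.44 in the 6 arrays. Its difference was 0.06 (SE 0.14, interval -0.26 to 0.38), which became -0.02 without wild-type replicate 1, -0.05 without Pfn2-/- replicate 1 and 0.13 without wild-type replicate 3. Axin2 lies at chr11:108917828-108950783 and Nkd1 at chr8:88521342-88594887.

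Tbx3 and Lect2 had the largest differences of the 10. Tbx3, a T-box transcription factor downstream of beta-catenin in liver at chr5:119670534-119684724, lay at 7.16, 6.75 and 7.54 in wild-type livers against 7.89, 7.16 and 8.01 in Pfn2-/- livers. Pfn2-/- replicates 1 and 3 exceeded every wild-type array, while Pfn2-/- replicate 2 equalled wild-type replicate 1. The difference was 0.54 (SE 0.25, interval -0.02 to 1.10, limma adjusted p = 0.92), 0.80 without Pfn2-/- replicate 2 and 0.34 without wild-type replicate 2. Lect2, a protein secreted by hepatocytes and a target of beta-catenin at chr13:56529734-56548559, lay at 7.70, 8.36 and 8.52 in wild-type livers against 9.00, 8.42 and 8.71 in Pfn2-/- livers. Wild-type replicate 1 stood well below the other 5 arrays. The difference was 0.52 (SE 0.22, interval 0.02 to 1.02, limma adjusted p = 0.92), 0.27 without wild-type replicate 1 and 0.68 without wild-type replicate 3.

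**Figure D2:**
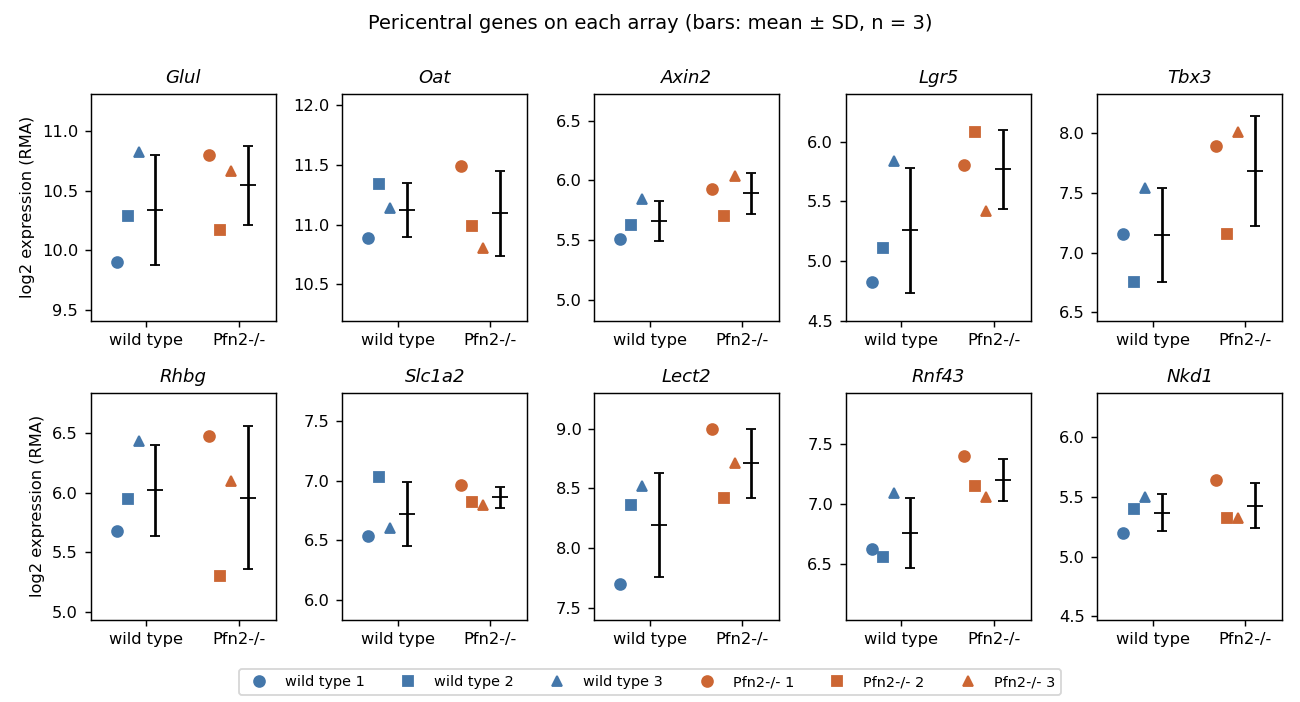
Log2 expression of each of the 10 pericentral genes on each array (vertical axes span the same log2 width but different levels), wild type in blue and Pfn2-/- in orange, with bars for the mean ± SD of 3 arrays. Every gene has overlapping genotypes, and Lect2 and Rnf43 come closest to separating.

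Several of the 10 genes, but not all, were high or low in the same animals. Pfn2-/- replicate 1 was the highest array for 5 of the 10 genes and above the gene's own mean for all 10. Wild-type replicate 1 was the lowest array for 6 and above the mean for 0. Both of these animals were 9 months old. Other genes ran differently, with Slc1a2 highest in wild-type replicate 2, Lgr5 highest in Pfn2-/- replicate 2 and Oat lowest in Pfn2-/- replicate 3. The share of all genes with such extremes was not worked out. The mean over the 10 genes, after subtracting each gene's average over the arrays, was -0.38, -0.14 and 0.15 in wild-type replicates 1, 2 and 3 and 0.35, -0.08 and 0.11 in the Pfn2-/- replicates. The genotypes therefore overlapped in the mean as well. The spread within a genotype was wide for most of the 10 genes. Rhbg, Lgr5, Tbx3 and Glul had pooled within-genotype SDs of 0.50, 0.44, 0.43 and 0.40, at percentiles 98.2, 97.2, 96.9 and 96.0 of all genes. Axin2 and Nkd1 had SDs of 0.17 each, at percentiles 49.0 and 48.6.

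The 10 genes did not all follow Glul from animal to animal. Across the 6 arrays, as a description, Pearson's r with Glul was 0.87 for Axin2, 0.86 for Lect2, 0.86 for Rhbg and 0.81 for Nkd1. It was 0.72 for Tbx3, 0.69 for Rnf43, 0.54 for Lgr5, 0.39 for Oat and 0.23 for Slc1a2. The arrays share 1 normalization, so these values are not independent of it.

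Outside the 10, the genes whose values ran closest to Glul over the 6 arrays were Dhrs1, Gulo, Syt13, Gm7241 and Tlcd2. Their r values were 0.996, 0.99, 0.988, 0.983 and 0.976, and 59 of 4021 genes with enough signal and spread had an r above 0.9. Gulo encodes gulonolactone oxidase, the last enzyme of vitamin C synthesis, and Dhrs1 a short-chain dehydrogenase. Gulo lay at 10.15, 10.42 and 10.68 in wild-type livers against 10.75, 10.35 and 10.67 in Pfn2-/- livers, the same sequence of low and high arrays as Glul with the top pair exchanged. Closest to the mean of the 10 genes were Pmel, Cyp1a2, Olfr1077-ps1, Dnajb2 and Gulo, with r of 0.977, 0.973, 0.964, 0.96 and 0.96. Cyp1a2, a pericentral cytochrome P450, lay at 9.81, 10.17 and 10.52 in wild-type livers against 10.86, 10.11 and 10.65 in Pfn2-/- livers. Gulo and Cyp1a2 both stand on the list of other pericentral genes.

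**Figure D3:**
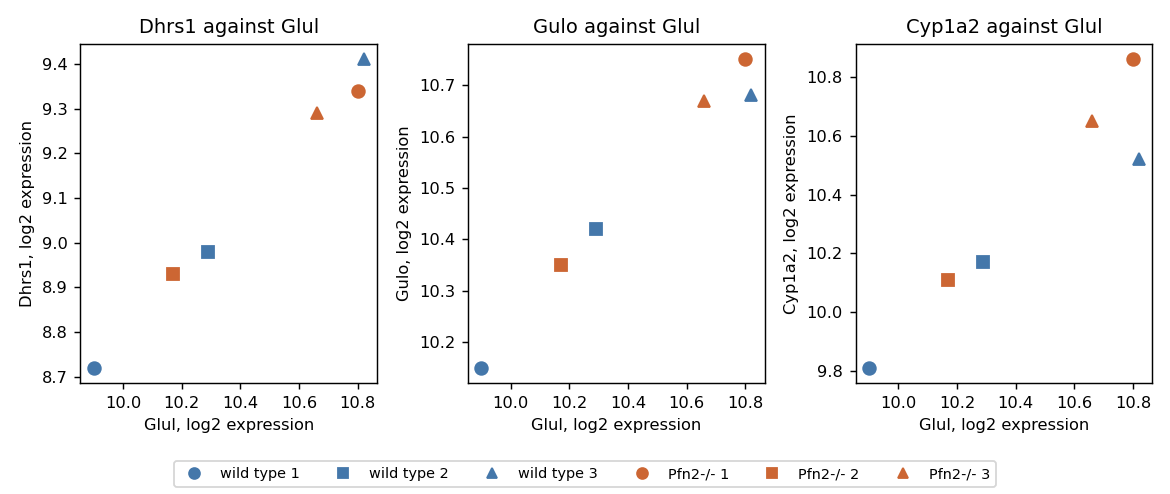
Log2 expression of Dhrs1, Gulo and Cyp1a2 (vertical axes) against Glul (horizontal axes), 1 point per array, wild type in blue and Pfn2-/- in orange. Wild-type replicate 1 is lowest on every axis, and wild-type replicate 3 and Pfn2-/- replicates 1 and 3 are the top 3 on each.

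Promoter sequences were read from RefSeq (GRCm38.p6) for 7 of the 10 genes, as the 250 bases before an annotated start. They were searched on both strands for CTTTGA, 1 form of the core bound by TCF and LEF factors, through which beta-catenin acts. It is present in 13.8% of all 32851 such windows and in 2 of the 8 windows of these genes, those of Slc1a2 and Lect2. These are shown with that of Glul, which has no match, with the motif or its reverse complement TCAAAG in capitals. The Glul window lies at chr1:153899679-153899928 on the plus strand, directly before the gene.
Glul: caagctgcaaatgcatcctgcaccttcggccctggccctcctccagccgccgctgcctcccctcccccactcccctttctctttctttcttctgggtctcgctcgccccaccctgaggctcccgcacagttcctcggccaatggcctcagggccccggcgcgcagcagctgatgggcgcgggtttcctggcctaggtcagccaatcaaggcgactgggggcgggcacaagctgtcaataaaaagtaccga
The Slc1a2 window lies at chr2:102706188-102706437 on the plus strand, before a start 48199 bases inside the annotated gene. Its matches begin 206 and 77 bases before that start.
Slc1a2: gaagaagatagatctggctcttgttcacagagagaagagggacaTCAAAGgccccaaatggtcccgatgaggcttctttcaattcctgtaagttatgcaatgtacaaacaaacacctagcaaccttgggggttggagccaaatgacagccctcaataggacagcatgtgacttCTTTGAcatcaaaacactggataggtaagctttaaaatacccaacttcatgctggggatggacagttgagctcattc
The Lect2 window lies at chr13:56548539-56548788 on the minus strand, before a start 21 bases inside the annotated gene, with a match that begins 31 bases before that start.
Lect2: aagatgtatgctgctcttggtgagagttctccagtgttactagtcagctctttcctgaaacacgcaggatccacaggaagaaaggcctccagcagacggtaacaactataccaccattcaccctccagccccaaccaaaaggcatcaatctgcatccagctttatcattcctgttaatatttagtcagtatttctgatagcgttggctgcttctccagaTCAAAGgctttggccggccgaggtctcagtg
Of the windows without a match, those of Axin2 and Nkd1 and 1 of Rnf43 precede starts 2521, 6291 and 36810 bases inside their genes. A match describes letters only, and a window without one says nothing of sites elsewhere or of other forms of the core, which were not searched.

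The other genes of pericentral hepatocytes were also mixed between the genotypes. Of 26 measured genes on this list 0 passed the adjusted test, and the median difference was 0.14, with 19 above 0 and 7 below. That median was 0.049 without Pfn2-/- replicate 1 and 0.25 without Pfn2-/- replicate 2. Groups did not overlap for 2 genes with higher and 3 with lower values in Pfn2-/- liver, where 5.09% and 4.76% of all genes did so. Akr1c6, an aldo-keto reductase of steroid metabolism, lay at 6.39, 6.68 and 6.51 in wild-type livers against 7.25, 7.06 and 7.01 in Pfn2-/- livers (difference 0.58, SE 0.13, limma adjusted p = 0.712). Every Pfn2-/- array was above every wild-type array. Slco1b2, an organic anion uptake transporter, differed by 0.45 (SE 0.14), and Gstm3, a glutathione transferase, by -0.60 (SE 0.25), which was -0.28 without wild-type replicate 3. Cyp7a1, the rate-limiting enzyme of bile acid synthesis, differed by -0.50 (SE 0.21), and by -0.31 without Pfn2-/- replicate 2. Cyp1a2 differed by 0.37 (SE 0.22), by 0.20 without wild-type replicate 1 and by 0.59 without Pfn2-/- replicate 2. Cyp2e1, the main ethanol-oxidising P450, differed by 0.09 (SE 0.12), and by 0.05 and 0.15 without Pfn2-/- replicates 1 and 2. Rows of the Akr1c, Gstm and Cyp families are uncertain, since near-identical paralogs can bind the same probes.

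Periportal genes had differences centred below 0. Of 26 measured genes 0 passed the adjusted test, 9 differences lay above 0 and 17 below, and the median was -0.10. The groups did not overlap for 7 genes, all with lower values in Pfn2-/- liver, against 4.76% of all genes. Some of the 7 differed little, by -0.20 for Atp5a1, -0.16 for Igf1 and -0.03 for Alb. The range of Alb over all arrays was 0.07. Of smallest p were 3 enzymes of the urea cycle. Asl, argininosuccinate lyase, lay at 9.88, 9.81 and 9.65 in wild-type livers against 9.15, 9.11 and 9.21 in Pfn2-/- livers (difference -0.62, SE 0.12, limma adjusted p = 0.499). Ass1, argininosuccinate synthase, differed by -0.49 (SE 0.18), or -0.33 without wild-type replicate 2, and Arg1, arginase, by -0.32 (SE 0.13). Otc, a further enzyme of the urea cycle on this list, differed in the other direction, by 0.15 (SE 0.13), with overlapping genotypes. For the other periportal genes named, the differences were -0.12 (SE 0.12) for Cps1, which feeds ammonium into the urea cycle, 0.06 (SE 0.11) for the P450 gene Cyp2f2 and 0.19 (SE 0.21) for the histidine ammonia-lyase gene Hal. Without single arrays they ranged from -0.15 to -0.063 for Cps1 (wild-type replicates 1 and 2), 0.018 to 0.078 for Cyp2f2 (Pfn2-/- replicates 1 and 3) and -0.028 to 0.35 for Hal (wild-type and Pfn2-/- replicate 3).

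By array, the centred mean of the other pericentral genes had the same sign as that of the 10 genes on all 6 arrays, and that of the periportal genes the opposite sign on all 6. The centred mean of the other pericentral genes was -0.30, -0.09 and 0.18 in the wild-type and 0.24, -0.24 and 0.21 in the Pfn2-/- replicates. That of the periportal genes was 0.15, 0.17 and -0.19 and then -0.03, 0.01 and -0.11. Wild-type replicates 1 and 3 thus had opposite signs in all 3 means. The match in sign was not particular to lists chosen by zone. The centred mean of 25 Wnt and R-spondin ligand genes, of which 8 lay above the median gene mean, also had the sign of the 10. That mean was -0.02, -0.06 and 0.02 in the wild-type and 0.11, -0.11 and 0.06 in the Pfn2-/- replicates. Of 19 other pericentral genes with enough signal and spread, 14 had r above 0.5 with Glul, as did 20.1% of the 4021 genes. Of 14 periportal genes 9 had r below -0.5, as did 23.5% of those genes. Among those genes, lists not chosen by zone also had such members, with 4 of 8 Kupffer cell and leukocyte markers, 3 of 6 endothelial markers, 3 of 6 nuclear partners of beta-catenin, and 2 of 5 hepatocyte markers below -0.5, as had 2 of 3 mid-lobule genes. Of 6 acute-phase genes 3 lay above 0.5. An r below -0.5 with Glul was thus not seen in periportal genes alone. This comparison was added after the values were seen, and it spans animals of both genotypes.

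**Figure D4:**
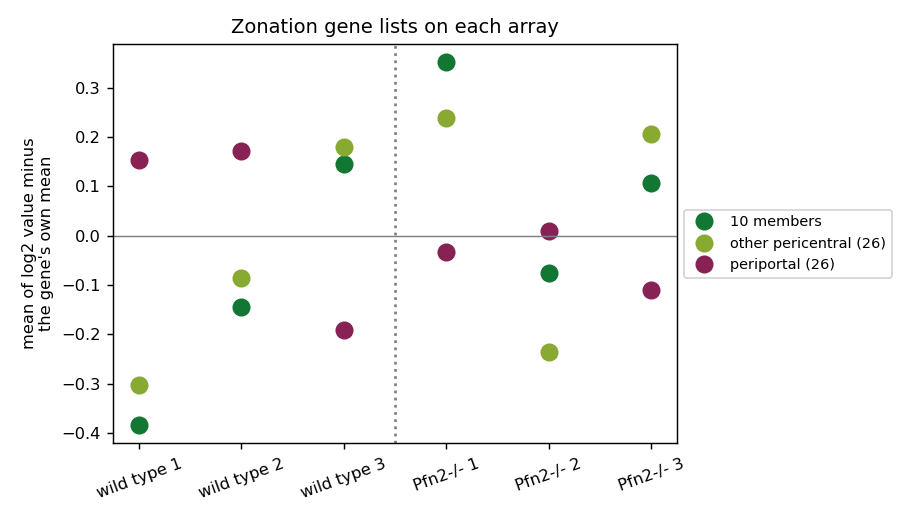
Mean over genes of the log2 value minus the gene's own mean (vertical axis) on each array, for the 10 pericentral genes, 26 other pericentral genes and 26 periportal genes. The 10 genes run from -0.38 in wild-type replicate 1 to 0.35 in Pfn2-/- replicate 1, and the periportal mean is highest in wild-type replicates 1 and 2.

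Of the Wnt and R-spondin ligands, Rspo3 had values that separated the genotypes. Rspo3, secreted by central vein endothelium, prolongs Wnt signalling by keeping Frizzled receptors at the surface. It lay at 6.18, 6.39 and 6.40 in wild-type livers against 6.96, 6.69 and 6.73 in Pfn2-/- livers, so every Pfn2-/- array was above every wild-type array. The difference was 0.47 (SE 0.13, interval 0.18 to 0.76), with a limma adjusted p of 0.788, and 0.39 to 0.52 without single arrays. It was the only one of 25 measured ligand and secretion genes whose groups did not overlap, against 9.85% of all genes. The central vein ligands Wnt2 and Wnt9b differed by -0.06 (SE 0.20) and -0.06 (SE 0.22), with Wnt2 below the median gene mean. They ranged from -0.28 to 0.15 and from -0.25 to 0.22 without single arrays, lowest without Pfn2-/- replicate 1 and highest without Pfn2-/- replicate 2. Wnt6 differed by 0.27 (SE 0.16), or 0.41 without Pfn2-/- replicate 3. Porcn, which acylates Wnt proteins, differed by -0.30 (SE 0.17), or -0.14 without wild-type replicate 2. The median of the 25 was 0.03, from -0.018 without wild-type replicate 2 to 0.14 without Pfn2-/- replicate 2.

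Of 20 receptor genes, among them the members Lgr5 and Rnf43, 0 passed the adjusted test and the median was 0.02, from -0.018 without wild-type replicate 2 to 0.079 without wild-type replicate 1. The dim receptor gene Fzd10 alone had groups that did not overlap, against 9.85% of all genes. The R-spondin receptor Lgr4 differed by -0.08 (SE 0.12), the Rnf43 homologue Znrf3 by -0.04 (SE 0.12) and Fzd5 by 0.30 (SE 0.15). Fzd5 differed by 0.16 without wild-type replicate 2, Lgr4 by 0.0017 without Pfn2-/- replicate 3 and Znrf3 by 0.005 without Pfn2-/- replicate 1. Of 18 genes of the destruction complex and signal transduction, Axin2 among them, 0 passed and the median was -0.05, from -0.082 without wild-type replicate 3 to -0.018 without Pfn2-/- replicate 2. Their centred mean was 0.014 to 0.046 in wild type and -0.049 to -0.013 in Pfn2-/- liver, so the genotypes did not overlap in it. How often the mean of a list of this size does so was not tested. Axin1, the constitutive scaffold, lay at 5.84, 6.14 and 5.76 in wild-type livers against 5.47, 5.63 and 5.15 in Pfn2-/- livers (difference -0.50, SE 0.16, limma adjusted p = 0.851, -0.60 to -0.36 without single arrays). Every Pfn2-/- array was below every wild-type array for Axin1, and the same held for Dvl1, which differed by -0.27 (SE 0.13). Groups thus did not overlap for 2 of the 18 with lower and 0 with higher values, against 4.76% and 5.09% of all genes. The genes of beta-catenin itself, Ctnnb1, of the scaffold Apc and of the kinase Gsk3b differed by -0.08 (SE 0.12), -0.11 (SE 0.15) and 0.02 (SE 0.14). Ctnnb1 was at -0.017 without Pfn2-/- replicate 3, Apc at 0 without Pfn2-/- replicate 1, and Gsk3b at -0.068 without wild-type replicate 1 and 0.12 without Pfn2-/- replicate 1.

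Among 14 nuclear partners of beta-catenin 0 passed, with a median of 0.05 that was 0.00083 without wild-type replicate 3. Groups did not overlap for Tle4 and Lef1, against 9.85% of all genes. Tle4, a Groucho co-repressor, differed by -0.38 (SE 0.12), while its relative Tle3 differed by 0.55 (SE 0.21), or 0.35 without Pfn2-/- replicate 1. Lef1, a factor of the TCF family, was dim, at 4.30, 4.43 and 4.48 in wild-type livers against 4.52, 4.49 and 4.74 in Pfn2-/- livers. Tcf7l2, a main TCF factor of liver, differed by 0.11 (SE 0.17), from -0.067 without Pfn2-/- replicate 2 to 0.20 without Pfn2-/- replicate 1. Of 19 antagonists, Nkd1 among them, 0 passed and 0 had groups that did not overlap, against 9.85% of all genes. The secreted Wnt deacylase gene Notum differed by 0.09 (SE 0.15), from -0.025 without wild-type replicate 1 to 0.18 without Pfn2-/- replicate 2. Of 14 common Wnt targets outside the 10 genes 0 passed, 7 differences lay above and 7 below 0, and the median was 0.02, from -0.051 to 0.039 without Pfn2-/- and wild-type replicate 3. The cyclin gene Ccnd1 lay at 6.71, 7.81 and 6.33 in wild-type livers against 5.99, 6.10 and 5.86 in Pfn2-/- livers (difference -0.97, SE 0.31, limma adjusted p = 0.838). Without wild-type replicate 2, the highest array, it was -0.54. Sox9, also a cholangiocyte marker, differed by 0.58 (SE 0.20), or 0.36 without wild-type replicate 2. Myc differed by -0.76 (SE 0.49), from -1.22 without wild-type replicate 1 to -0.21 without wild-type replicate 3. Sp5, which was dim, differed by -0.16 (SE 0.20), from -0.36 without Pfn2-/- replicate 3 to -0.015 without wild-type replicate 3. Groups did not overlap for 3 of the 14, Sox9 and Lef1 with higher and Ccnd1 with lower values in Pfn2-/- liver, against 5.09% and 4.76% of all genes. Fzd10 and Lef1 were named after their values were seen.

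**Figure D5:**
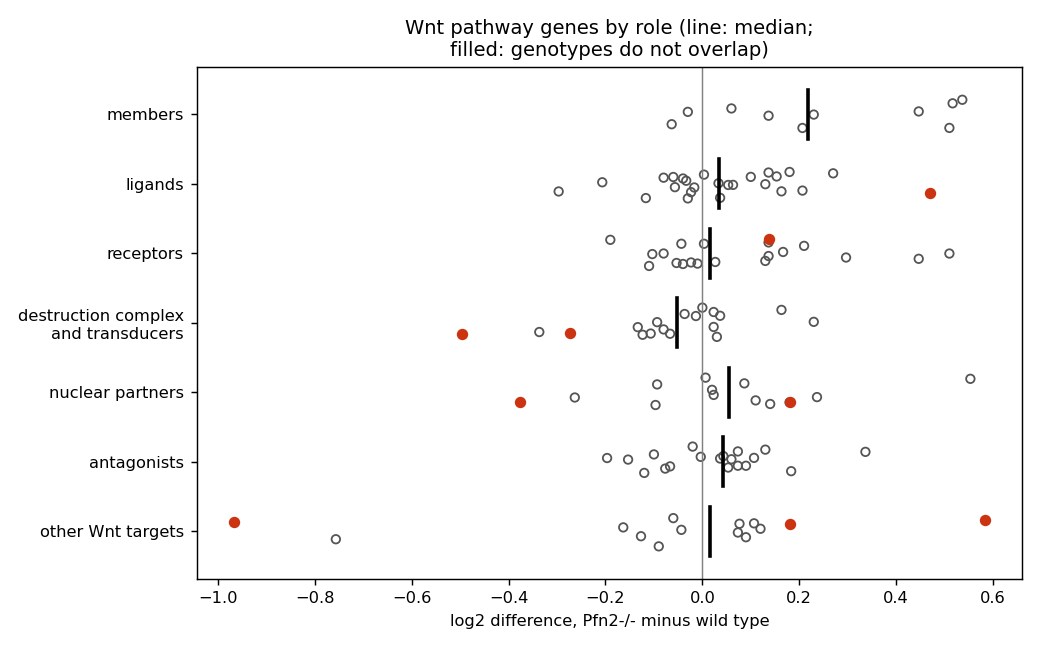
Log2 difference, Pfn2-/- minus wild type (horizontal axis), for the 10 pericentral genes and for Wnt pathway genes by role, 1 point per gene, filled where the genotypes do not overlap, with a line at each median. The medians run from -0.05 to 0.22, and Rspo3 is the filled point among the ligands.

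Genes that handle glutamine, glutamate and ammonium, Glul, Oat, Rhbg and Slc1a2 among them, numbered 25 measured, with 0 past the adjusted test and a median of -0.11. Without wild-type replicate 2 that median was -0.005. The aspartate aminotransferase gene Got1 lay at 10.96, 11.44 and 10.52 in wild-type livers against 9.93, 9.96 and 9.74 in Pfn2-/- livers (difference -1.10, SE 0.21, limma adjusted p = 0.488). Groups did not overlap for Got1, with lower values in Pfn2-/- liver, and for Slc1a5, with higher values. These were 1 gene each of the 25, against 4.76% and 5.09% of all genes. Slc1a5 was dim and differed by 0.18 (SE 0.12). Slc38a3, the glutamine transporter of hepatocytes, differed by -0.30 (SE 0.16), or -0.14 without Pfn2-/- replicate 3. Slc1a4, a neutral amino acid transporter, differed by -0.40 (SE 0.18), or -0.22 without Pfn2-/- replicate 2.

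Markers of other liver cells were read beside these results. The mean over 15 endothelial markers, centred as above, was -0.02 to 0.18 in wild type and -0.11 to -0.05 in Pfn2-/- liver. The genotypes did not overlap in it. Lyve1 weighs on this mean, with the widest range of the 15 genes, 2.51, and overlapping genotypes. It lay at 9.07, 9.23 and 6.78 in wild-type livers against 6.72, 8.41 and 7.74 in Pfn2-/- livers. Without Lyve1 the genotypes overlap in this mean, since Pfn2-/- replicate 1 then lies above wild-type replicate 1. Of the 15 differences 13 lay below 0, with a median of -0.09, or -0.15 without Pfn2-/- replicate 1. Rspo3, expressed by some of these cells, differed in the other direction. The mean over 14 Kupffer cell and leukocyte markers was -0.19 to 0.37 in wild type and -0.17 to 0.03 in Pfn2-/- liver. That over 10 stellate and fibroblast markers was -0.06 to 0.17 and -0.08 to -0.04. The mean of 5 cholangiocyte markers, of which 1 lay above the median gene mean, was -0.10 to -0.07 and 0.05 to 0.16, again without overlap. This mean leans on Sox9, which differed by 0.58, and on Cftr, by 0.33, which was very dim. Krt19, Krt7 and Epcam differed by 0.05, 0.02 and -0.10, each with overlapping genotypes. The part of these cells in the differences of the pericentral genes was not tested. With 3 arrays per genotype, the precision of each value is limited by their number.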

How the data were processed

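Total RNA of 6 livers was labelled with the GeneChip WT PLUS kit, per the labels' protocols. The values the authors deposited are log2 expression, made with RMA per the submitters' processing notes, which also name limma. RMA subtracts background, quantile normalizes and summarises probes, which compresses differences of dim genes. Versions and the probe set level: not given in the sources used here. Of 34390 rows, 23521 had exactly 1 symbol in the platform annotation, 1814 had several and 9055 were not listed. They gave 22180 genes, each at its row of highest mean.

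Genotype was fitted with limma 3.58.1 in R 4.3.3 (lmFit, eBayes, two-sided), with Benjamini-Hochberg adjustment over all genes, and the fit was tested on simulated data. The 10 genes, the 19 other lists and the tests were chosen with earlier results of these data known. Named genes were the 10, fixed pathway genes and up to 3 genes of smallest p per list described. Some further genes, such as Lyve1, Otc, Slc1a5 and Alb, were named after their values were seen. Genes like Glul or the mean of the 10 were the 5 of highest r among those above the median mean with an SD of at least 0.2. Alternatives covered scaling, dim-gene filters, row choice, variance model, array weights, a replicate block and single arrays left out.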

Additional observations from a re-analysis of the deposited data

How the results depend on the processing

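The 10 pericentral genes had 0 past the adjusted threshold under all 17 alternatives, the 6 without a single array included (0 to 0). Over all genes, 2 passed with array weights and 7 with the replicate block, and 0 to 6 without single arrays. Axin2, Lgr5, Tbx3, Slc1a2, Lect2 and Rnf43 kept the sign of their difference under all 17 alternatives. With array weights Oat and Rhbg differed by 0.093 and 0.14, above 0. Without single arrays the differences ranged from -0.012 to 0.45 for Glul, -0.23 to 0.12 for Oat, -0.32 to 0.27 for Rhbg and -0.047 to 0.13 for Nkd1. Of 39 genes outside the 10, 31 took no value of the opposite sign, with Apc at 0 without Pfn2-/- replicate 1. The other 8 ranged from -0.028 to 0.35 (Hal), -0.28 to 0.15 (Wnt2), -0.25 to 0.22 (Wnt9b), -0.12 to 0.0017 (Lgr4), -0.085 to 0.005 (Znrf3), -0.068 to 0.12 (Gsk3b), -0.067 to 0.20 (Tcf7l2) and -0.025 to 0.18 (Notum) without single arrays. With array weights Wnt2 and Wnt9b differed by 0.057 and 0.020. The filter at the median removed Wnt2 and any other gene below it. The causes were not tested.

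Replicate numbers go with age. Same-numbered arrays of the 2 genotypes had correlations of deviations of -0.08, 0.15 and 0.02, and differently numbered arrays -0.17 to 0.18. Deviations from the mean of 3 arrays cancel within a genotype, so these values do not decide whether the animals were paired. With the replicate block, Tbx3 and Rnf43 had an unadjusted p under 0.05, in place of Lect2 and Rnf43. The filter at the median left 1, Rnf43, and array weights gave 4. The 3 arrays per genotype limit all of these values.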

Other observations

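Genes of the middle of the lobule, between the pericentral and periportal zones, had no common direction. Of 5 measured genes 0 passed limma's adjusted test, and the median difference was -0.08, from -0.17 without Pfn2-/- replicate 3 to -0.0033 without Pfn2-/- replicate 1. The bile acid sterol hydroxylase gene Cyp8b1 lay at 8.21, 7.55 and 9.77 in wild-type livers against 9.30, 8.96 and 9.59 in Pfn2-/- livers, with wild-type replicate 3 above every other array. The hepcidin paralog Hamp2 lay at 5.77, 6.18 and 4.83 in wild-type livers against 4.73, 5.02 and 4.87 in Pfn2-/- livers, with wild-type replicate 3 within the Pfn2-/- range. Hamp, also on this list, was far brighter, with a mean of 12.38, and differed by -0.08 (SE 0.15). Whether the Hamp2 row also reads Hamp was not tested. The differences were 0.77 (SE 0.45) for Cyp8b1, -0.72 (SE 0.28) for Hamp2 and -0.29 (SE 0.23) for the binding protein gene Igfbp2. Without wild-type replicate 2 they were 0.29, -0.43 and -0.097, and without wild-type replicate 3 they were 1.40, -1.10 and -0.57.

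For the lists on the state of the samples, 0 genes passed the adjusted test. The median difference was -0.24 over 14 clock genes, 0.25 over 9 acute-phase genes and 0.20 over 10 heat shock genes, of which the first was 0.09 and the last -0.06 without Pfn2-/- replicate 3. The acute-phase median was 0.48 without Pfn2-/- replicate 2, and the heat shock median 0.37 without Pfn2-/- replicate 1. The median was -0.03 over 10 hepatocyte markers, from -0.048 without wild-type replicate 1 to 0.018 without wild-type replicate 2. It was -0.07 over 14 Kupffer cell and leukocyte markers, from -0.24 without wild-type replicate 3 to 0.10 without wild-type replicate 2. It was -0.10 over 10 stellate and fibroblast markers, from -0.15 without Pfn2-/- replicate 3 to -0.054 without Pfn2-/- replicate 1. It was 0.05 over 5 cholangiocyte markers, from -0.0017 without wild-type replicate 1 to 0.19 without wild-type replicate 3. Of the erythroid markers 1 was measured, Slc4a1, with a difference of 0.21 (SE 0.18), or 0.022 without Pfn2-/- replicate 2.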
